A study of Homo sapiens with 12 samples.

Results

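ERBB2 and 9 genes beside it on chromosome 17 (GRB7, STARD3, PGAP3, MIEN1, TCAP, PNMT, PPP1R1B, CDK12 and FBXL20) were followed through 12 RNA-seq libraries of androgen-treated and vehicle-treated breast cancer cells. The 10 genes were chosen by name for their position around ERBB2, out of 60670 genes in the counts table, and 8 of them passed the filter on low counts that left 16355 genes for testing. They lie within 495 kb of chromosome 17 (GRCh38, 39252663 to 39747291). The questions were whether ERBB2 was lower after androgen alone or along with its neighbours, and whether a high ERBB2 value in 1 vehicle library was shared by them.

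The cells were MDA-MB-453, an established human breast cancer line of luminal type that carries the androgen receptor. The treated group received 10 nM dihydrotestosterone (DHT), a potent natural androgen, for 6 h. The control group received the vehicle, 0.001% ethanol, for the same 6 h. The medium of both groups was high-glucose DMEM plus 10% FBS, in which they were kept for 72 h, and the serum was not described as stripped of hormones. Each group had 6 libraries, called independent replicates from consecutive passages by the labels, so all 12 come from a single line and the p-values measure the spread between these libraries. Library totals ran from 4346465 estimated counts (vehicle replicate 6) to 25678781 (DHT replicate 2).

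ERBB2 encodes HER2, a receptor tyrosine kinase with no known ligand of its own, which signals in pairs with EGFR, ERBB3 or ERBB4. In HER2-positive breast cancer the gene is amplified as a stretch of chromosome that usually takes in several neighbours, so ERBB2, GRB7, STARD3, PGAP3 and MIEN1 are often highly expressed together. Copy number was not measured here.

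The most upstream start region of ERBB2 is shown because it faces the start of PGAP3. Reads and regulatory sequence of the pair are hard to separate there. PGAP3 runs in the opposite direction and encodes an enzyme that remodels lipids on glycosylphosphatidylinositol anchors. RefSeq promoter windows (GRCh38.p14, 250 bases before to 50 after a start) matched 6 of the 10 genes. The windows of ERBB2, chr17:39687844-39688143 on the plus strand, and PGAP3, chr17:39688008-39688307 on the minus strand, share 136 bases. Each is written 5′ to 3′ on its own strand, with motif matches in capitals.
ERBB2: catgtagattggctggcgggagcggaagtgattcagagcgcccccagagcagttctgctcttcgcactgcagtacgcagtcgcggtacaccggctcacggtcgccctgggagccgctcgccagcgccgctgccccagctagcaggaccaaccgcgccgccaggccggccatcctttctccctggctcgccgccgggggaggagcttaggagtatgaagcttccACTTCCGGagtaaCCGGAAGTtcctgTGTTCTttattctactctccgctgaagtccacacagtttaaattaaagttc
PGAP3: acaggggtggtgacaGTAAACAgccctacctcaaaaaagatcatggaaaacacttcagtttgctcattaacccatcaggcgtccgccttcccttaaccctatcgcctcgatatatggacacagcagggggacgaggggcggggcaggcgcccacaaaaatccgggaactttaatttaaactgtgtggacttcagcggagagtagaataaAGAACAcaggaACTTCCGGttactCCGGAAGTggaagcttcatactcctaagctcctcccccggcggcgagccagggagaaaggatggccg
Capitals mark matches on either strand to CCGGAAGT (ETS factors), AGAACA (a half-site of the androgen receptor element) and TGTTTAC (forkhead factors). Both windows hold 2 ETS matches, where 4.14% of 35116 RefSeq promoter windows hold at least 1, and 1 half-site match, where 14.8% hold at least 1. These matches lie in the shared stretch, so the pair of windows shows the same bases read from opposite strands. PGAP3 also had 1 forkhead match, found in 3.42% of windows. The letters GCCNNNGGC (AP-2 factors), found in 23.2% of windows, were in neither window, but STARD3 and each of the 2 FBXL20 windows had 1 match. The letters for GATA factors, written AGATAA and found in 10.3% of windows, had no match in the windows of these 6 genes, and none of the 5 motifs matched in the CDK12 and MIEN1 windows. Of the 7 ERBB2 transcripts in the basic GENCODE annotation, 2 start in the printed window, and the others start further on, up to position 39700080. No window at those later starts was searched, so the matches and missing letters above describe only the printed window of ERBB2. For PGAP3, 4 of 5 transcripts start in its window.

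ERBB2 (ENSG00000141736, plus strand, 39687914 to 39730426) had the highest level of the 10 genes in both groups. Its CPM, the counts relative to library totals scaled by the trimmed mean of M values (TMM), ran from 581 through a median of 646 to 1024 in DHT libraries and from 996 through a median of 1117 to 2165 in vehicle libraries. Of the DHT libraries, 5 lay below every vehicle library, and replicate 2, the highest of the DHT group, lay just above the lowest vehicle library. Mean CPM was 724 ± 166 in DHT and 1263 ± 446 in vehicle libraries (SD, n = 6 each). The log2 fold change was −0.80 (SE 0.21). Its adjusted p of 0.0649 by the quasi-likelihood test of edgeR missed the threshold of 0.05. In such bulk RNA, fewer cells expressing a gene and less RNA of it per cell cannot be told apart. In the authors' deposited table ERBB2 was listed with a log2 fold change of −0.60 and an adjusted p of 0.00189. The vehicle spread was set largely by replicate 2: without that library the fold change was −0.58 with an adjusted p of 0.0440, and without DHT replicate 2 it was −0.93 with an adjusted p of 0.0246. Over the 22 alternative settings the fold change stayed below 0, and the adjusted p ran from 0.00108 to 0.167.

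GRB7 (plus strand, 39737927 to 39747291) encodes an adaptor that binds phosphorylated receptors, HER2 among them, through its SH2 domain. It lies just past the 3′ end of ERBB2. GRB7 had 39.3 to 62.5 CPM in DHT libraries, with a median of 46.9, and 63.8 to 122.7 CPM in vehicle libraries, with a median of 75.9. Every DHT library was below every vehicle library, as it was for 0.991% of the genes tested. Mean CPM was 49.2 ± 8.96 in DHT and 82.3 ± 20.7 in vehicle libraries (SD, n = 6 each). GRB7 fell with DHT by 0.74 on the log2 scale (SE 0.17, edgeR adjusted p = 0.0265). It was the 1 gene of the 8 tested that passed, where 2.84% of all genes passed in either direction and 0.88% passed as lower. The authors' deposited table lists GRB7 at −0.64 with an adjusted p of 7.57e-04. Leaving out DHT replicate 1, 3, 5 or 6 took its adjusted p to between 0.0663 and 0.0756, while its log2 fold change stayed between −0.74 and −0.68.

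**Figure D1:**
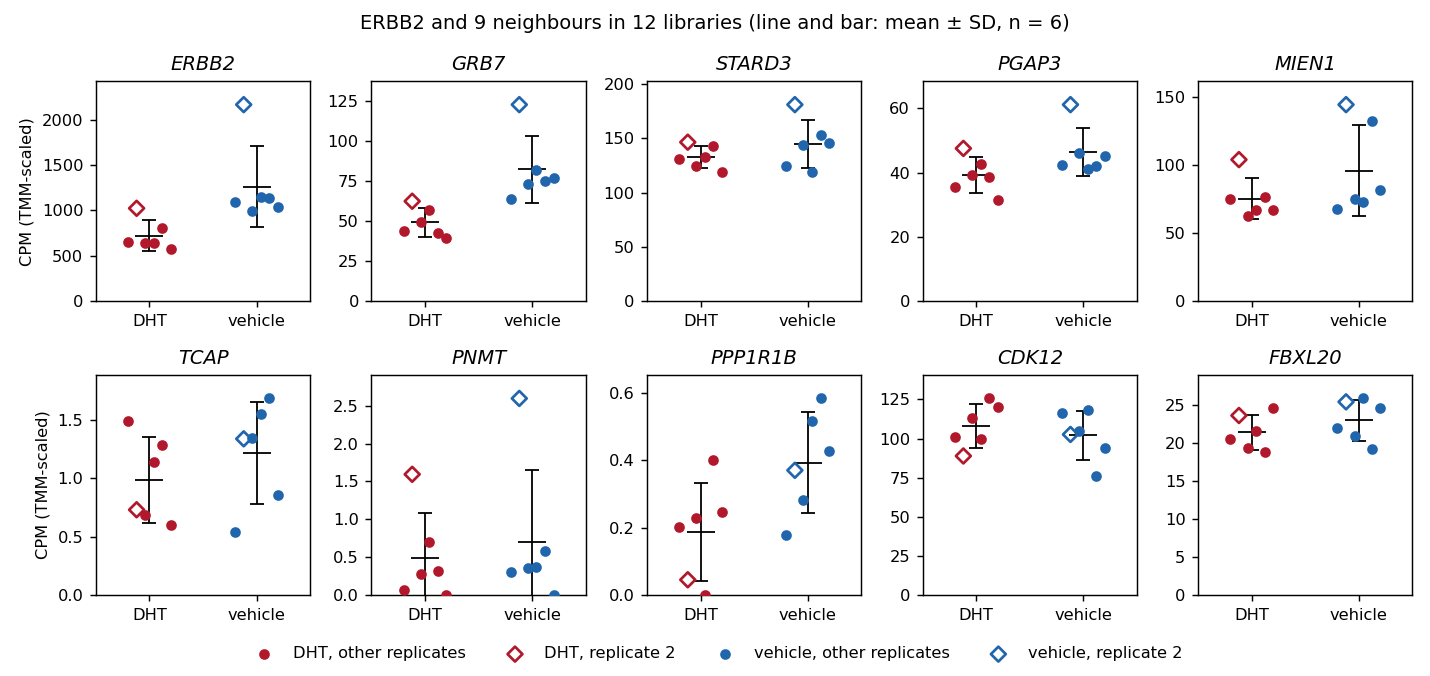
CPM of each of the 10 genes in every library, with DHT in red to the left and vehicle in blue to the right of each panel; lines and bars are the mean ± SD of 6 libraries, and bars that would pass below 0 end at 0. Open diamonds are replicate 2 of each group, the highest library of its group for ERBB2, GRB7, STARD3, PGAP3, MIEN1 and PNMT. The DHT and vehicle points of GRB7 do not overlap.

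STARD3, PGAP3 and MIEN1 lie on either side of, or partly inside, ERBB2. STARD3 (plus strand, 39637090 to 39664201) encodes a protein of late endosomes that binds sterols and tethers them to the endoplasmic reticulum. It had 118.9 to 146.6 CPM in DHT libraries (median 132) and 119.3 to 181.2 CPM in vehicle libraries (median 145.1). The groups overlapped, with vehicle replicates 2 and 5 above the DHT range and DHT replicate 6 just below the vehicle range. Its log2 fold change was −0.12 (SE 0.12, edgeR adjusted p = 0.821).

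PGAP3 (minus strand, 39671122 to 39696797) had 31.4 to 47.6 CPM in DHT libraries (median 38.97) and 41.1 to 61.2 CPM in vehicle libraries (median 43.9). Most DHT libraries were below the vehicle range, and the rest lay within it. The log2 fold change was −0.24 (SE 0.13, edgeR adjusted p = 0.531). MIEN1 (minus strand, 39728496 to 39730532), whose small membrane-anchored product promotes cell migration, had 62.6 to 104.1 CPM in DHT libraries (median 71.3) and 67.8 to 144.5 CPM in vehicle libraries (median 78.7). Vehicle replicates 2 and 5 stood above the rest, and the other vehicle libraries overlapped the DHT group. Its log2 fold change was −0.35 (SE 0.21, edgeR adjusted p = 0.609).

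ERBB2 and MIEN1 share 571 bp of exon on opposite strands, which is 28.0% of MIEN1 exon length and 5.53% of that of ERBB2. For ERBB2 and PGAP3 the shared exon length is 144 bp, 3.98% of PGAP3 and 1.4% of ERBB2. The sources used here do not say whether strand was used in counting, so reads from the shared stretches of these genes cannot be told apart.

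CDK12 and FBXL20 lie further upstream. CDK12 (plus strand, 39461486 to 39564907) encodes a kinase of the RNA polymerase II tail that works with cyclin K. It had 88.9 to 125.6 CPM in DHT libraries (median 106.9) and 75.9 to 118.5 CPM in vehicle libraries (median 103.8), with a log2 fold change of 0.08 (SE 0.13, edgeR adjusted p = 0.915). FBXL20 (minus strand, 39252663 to 39402523), an F-box protein that brings substrates to SCF ubiquitin ligases, had 18.8 to 24.6 CPM in DHT libraries (median 21.1) and 19.2 to 25.9 CPM in vehicle libraries (median 23.3). Its log2 fold change was −0.10 (SE 0.12, edgeR adjusted p = 0.872). For both genes the groups overlapped over most of their range. In the authors' deposited table the log2 fold changes were −0.05 for STARD3, −0.21 for PGAP3, −0.24 for MIEN1, 0.03 for CDK12 and −0.15 for FBXL20, each with an adjusted p of 1.

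The remaining 3 neighbours are genes of other tissues and were near the limit of detection. TCAP (plus strand, 39665349 to 39666554), which caps titin in the sarcomere of muscle, had 0.596 to 1.49 CPM in DHT libraries and 0.539 to 1.68 CPM in vehicle libraries. Its log2 fold change was −0.33 (SE 0.31, edgeR adjusted p = 0.821), from 85 counts over the DHT group and 94 over the vehicle group. PNMT (plus strand, 39667981 to 39670475), which makes adrenaline from noradrenaline, did not pass the filter. It had 0 to 1.59 CPM in DHT libraries and 0 to 2.6 CPM in vehicle libraries. Replicate 2 was the highest library for PNMT in both groups, and 35 counts in each of these 2 libraries made up most of the 53 counts of the DHT group and the 58 of the vehicle group. PPP1R1B (plus strand, 39626740 to 39636626), which encodes the phosphatase inhibitor DARPP-32, did not pass either. It had 0 to 0.401 CPM in DHT libraries and 0.18 to 0.584 CPM in vehicle libraries. A count of 0 allows up to 0.298 CPM of PNMT in DHT replicate 6 and 0.641 CPM in vehicle replicate 6, and up to 0.263 CPM of PPP1R1B in DHT replicate 4, with a floor of 3 counts per library that covers counting error only.

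Levels of different genes were compared as CPM per kilobase of the exon length in the counts table. On that scale ERBB2 averaged 70.2 ± 16.04 in DHT and 122 ± 43.2 in vehicle libraries (SD, n = 6 each), rank 726 in DHT and 377 in vehicle libraries among the 16355 genes tested. After it came MIEN1 (37.1 ± 7.35 in DHT, 47.1 ± 16.5 in vehicle), STARD3 (22.7 ± 1.79 in DHT, 24.7 ± 3.80 in vehicle) and GRB7 (13.7 ± 2.49 in DHT, 22.9 ± 5.74 in vehicle). PGAP3, CDK12, FBXL20, TCAP, PNMT and PPP1R1B followed in that order in both groups. Neighbours in the order whose library ranges overlapped were GRB7 with PGAP3 and PGAP3 with CDK12 in DHT libraries. In vehicle libraries they were STARD3 with GRB7 and FBXL20 with TCAP. TCAP with PNMT and PNMT with PPP1R1B overlapped in both groups.

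Of the 39 genes tested within 1 Mb, ERBB2 and GRB7 had the lowest log2 fold changes. Among the 11 genes tested within 0.25 Mb of it, ERBB2 included, GRB7 passed the test as lower and 0 passed as higher (edgeR, adjusted p under 0.05), where 1.96% of all genes passed as higher. At an unadjusted p under 0.05, ERBB2 and GRB7 were lower and 0 genes were higher, where 12% of all genes passed in either direction, and DESeq2 called the same pair. Between 0.25 and 1 Mb, 0 of 28 genes passed in edgeR, DESeq2 or limma-voom. At an unadjusted p under 0.05 in edgeR, 4 of them were lower and 0 higher, beside 5.41% lower and 6.59% higher over all genes. These 4 were LASP1 (log2 fold change −0.50), PCGF2 (−0.36), WIPF2 (−0.33) and RARA-AS1 (−0.62). RARA-AS1 was low, with a mean CPM of 0.592 in DHT and 0.935 in vehicle libraries. The median log2 fold change was −0.15 within 0.25 Mb, −0.11 from 0.25 to 1 Mb and −0.10 from 1 to 5 Mb, where 3 of 131 genes passed as lower and 1 as higher. Over all genes tested it was −0.05, and the rest of chromosome 17 and the other chromosomes had the same median. The share of genes with a fold change below 0 was 72.7% within 0.25 Mb, 78.6% from 0.25 to 1 Mb, 62.6% from 1 to 5 Mb and 58.2% over all genes, so it was not highest next to ERBB2.

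**Figure D2:**
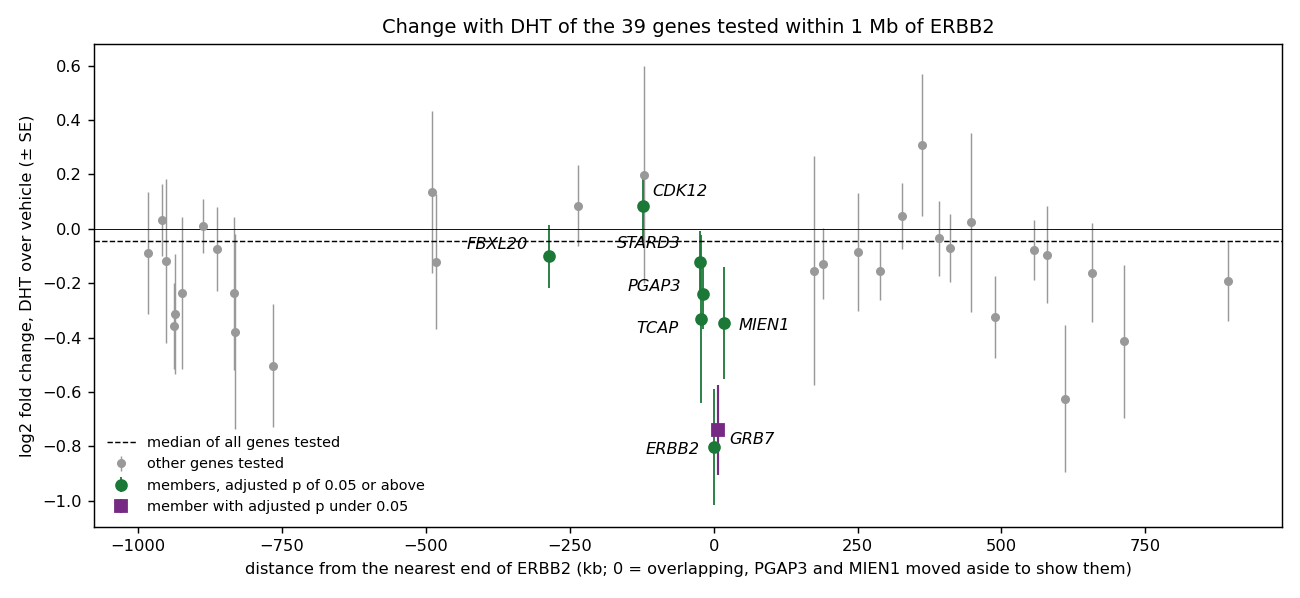
Log2 fold change, DHT over vehicle, with its SE for the 39 genes tested within 1 Mb of ERBB2, against distance from the nearest end of ERBB2 in kb. ERBB2 and GRB7 lie at −0.80 and −0.74, apart from STARD3, PGAP3, TCAP and MIEN1 between −0.35 and −0.12; the dashed line is the median of all genes tested, −0.05.

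The difference between the change of ERBB2 and that of each neighbour was tested directly, on the log2 CPM of a gene minus that of ERBB2 in the same library (limma, adjusted over 16354 genes). The change of GRB7 was 0.05 above that of ERBB2, with a 95% interval of −0.29 to 0.38 and an adjusted p of 0.780. Thus no difference between the pair was detected, and the interval leaves room for a difference of up to 0.38. For STARD3 the difference was 0.66 (0.31 to 1.01, adjusted p = 0.00584), for PGAP3 0.53 (0.19 to 0.88, adjusted p = 0.0141) and for MIEN1 0.47 (0.12 to 0.83, adjusted p = 0.0254). CDK12 differed from ERBB2 by 0.86 (0.34 to 1.38, adjusted p = 0.0101) and FBXL20 by 0.67 (0.22 to 1.13, adjusted p = 0.0169). TCAP, with its low counts, differed by 0.52 (−0.21 to 1.24, adjusted p = 0.171).

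In all, 5 of the 7 neighbours tested passed this test, each with a fold change above that of ERBB2. Of all genes, 64.2% differed from ERBB2 in this fit, so the share among the neighbours is not particular to them. Within 1 Mb, 24 of 38 genes differed. The MIEN1 difference was lost, with an adjusted p of 0.0526 to 0.0566, without DHT replicate 1 or 6 or vehicle replicate 1 or 4. With GRB7 in place of ERBB2, an alternative chosen after the data were seen, the same 5 genes differed, MIEN1 with an adjusted p of 0.0463.

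**Figure D3:**
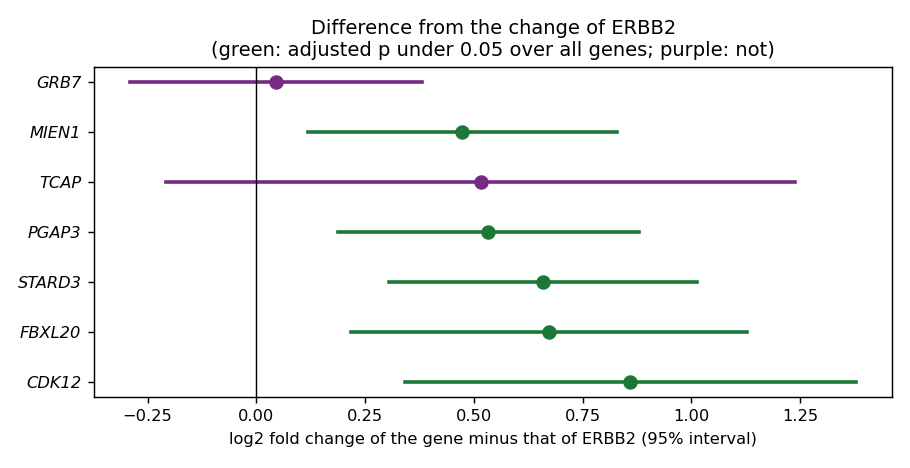
Change of each tested neighbour minus the change of ERBB2 (log2) with its 95% interval; 0 is the change of ERBB2. The interval of GRB7 spans 0, from −0.29 to 0.38, as does that of TCAP, and those of the other 5 neighbours lie above 0.

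As a share of ERBB2 CPM in the same library, GRB7 was 5.3% to 8.9% in DHT and 5.67% to 7.38% in vehicle libraries, ranges that overlap. PGAP3 was 4.65% to 6.67% of ERBB2 in DHT and 2.83% to 4.63% in vehicle libraries, with no overlap. Relative to ERBB2, 22.5% of all genes were likewise above every vehicle library in every DHT library. STARD3 was 14.3% to 20.7% in DHT and 8.37% to 14.5% in vehicle libraries, overlapping only at the edge. MIEN1 was 9.45% to 11.6% in DHT and 6.18% to 11.7% in vehicle libraries, with vehicle replicate 5 above every DHT library. CDK12 was 8.68% to 20.7% in DHT and 4.74% to 10.6% in vehicle libraries, and the ranges overlapped. ERBB2 itself took 59.1% to 68.3% of the summed CPM of the 10 genes in DHT libraries and 68.1% to 77.1% in vehicle libraries.

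The library labelled vehicle replicate 2 had 2165 CPM of ERBB2, 2.0 times the mean of the other 5 vehicle libraries, or 1.00 higher on the log2 scale. Of all genes tested, 9.95% were as far above in that library. The excess there was 0.79 for MIEN1, 0.73 for GRB7, 0.50 for PGAP3 and 0.41 for STARD3, against 0.23 for TCAP, 0.18 for FBXL20 and 0.03 for CDK12. It was thus shared, at a smaller size, by the 4 neighbours nearest to ERBB2 that were well expressed, and not by CDK12. Yet 16.1% of all genes were as far above in that library as MIEN1, 17.9% as GRB7, 26.9% as PGAP3 and 30.8% as STARD3, so these excesses were common ones.

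Replicate 2 of the DHT group was also high for ERBB2, MIEN1, GRB7 and PGAP3. There the excess over the other 5 DHT libraries was 0.63 for ERBB2, 0.58 for MIEN1, 0.43 for GRB7, 0.35 for PGAP3, 0.18 for FBXL20 and 0.17 for STARD3. Of all genes tested, 18.15% were as far above in that library as ERBB2, 20.2% as MIEN1, 26.9% as GRB7 and 30.95% as PGAP3. For FBXL20 and STARD3 these shares were 40.1% and 40.3%. TCAP and CDK12 were lower than in the other DHT libraries, at −0.37 and −0.33 on the log2 scale. Both replicate 2 libraries stood apart over the whole table. Replicate 2 was the highest of its group for 38.6% of genes in DHT and 32.3% in vehicle libraries, and its TMM factor was 0.856 in DHT and 0.796 in vehicle libraries. Vehicle replicate 5 also had a low TMM factor, 0.884, beside 1.02 to 1.08 in the remaining libraries. Over all genes, the excess of vehicle replicate 2 had quartiles of −0.54 and 0.54, and that of DHT replicate 2 had quartiles of −0.46 and 0.47. The part of these library-wide differences in the ERBB2 values was not tested.

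With group means removed, ERBB2 varied across the 12 libraries with PGAP3 (Pearson r = 0.82), GRB7 (0.79), MIEN1 (0.77) and STARD3 (0.75), and little with FBXL20 (0.28), TCAP (0.14) or CDK12 (−0.15). The median over the 7 neighbours was 0.75. Among all genes the median r with ERBB2 was −0.01, but with quartiles of −0.63 and 0.64, and 15.4% of genes were as high as GRB7. The other 31 genes tested within 1 Mb had a median of 0.41. These values are descriptions, since the libraries differ in depth and scaling.

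Without both replicate 2 libraries most of this covariation was gone. Over the 10 libraries left, r with ERBB2 was 0.02 for GRB7, 0.19 for PGAP3, 0.29 for STARD3 and 0.31 for MIEN1. It was 0.42 for TCAP, 0.14 for CDK12 and −0.44 for FBXL20, and the median over the 7 neighbours was 0.19. The median over all genes was 0.01, with quartiles of −0.21 and 0.21, and 48.8% of genes were as high as GRB7. For GRB7, whose change with DHT was close to that of ERBB2, the covariation between libraries thus rested on the 2 replicate 2 libraries.

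**Figure D4:**
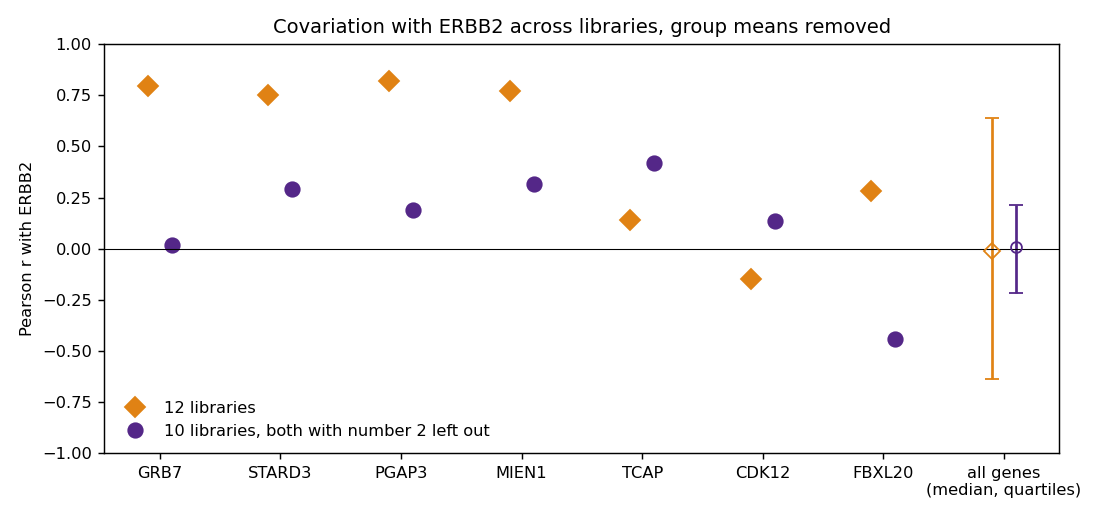
Pearson r of each tested neighbour with ERBB2 across libraries, group means removed, over all 12 libraries and over the 10 left without both replicate 2 libraries, beside the spread over all genes tested. The values of GRB7, STARD3, PGAP3 and MIEN1 lie between 0.75 and 0.82 over 12 libraries and between 0.02 and 0.31 over 10.

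Within each group of 6 libraries, no gene of 16354 had a correlation with ERBB2 that passed adjustment by exact permutation over 720 pairings. The smallest p this permutation test can give by Pearson r is 0.00139. Such a p passes adjustment over 16354 genes only if many genes reach it together, so the result says little on a single neighbour. At an unadjusted p under 0.05, 21% of genes passed in DHT and 17.6% in vehicle libraries by Pearson r. STARD3 in DHT libraries had r = 0.91 (exact permutation p = 0.00417, adjusted p = 0.127) and Spearman's rho = 0.94 (exact permutation p = 0.0167, adjusted p = 0.311). Its r was 0.88 without the 2 libraries farthest from the ERBB2 median, replicates 2 and 5. In vehicle libraries, however, the r of STARD3 was 0.70, and −0.40 without replicate 2. MIEN1 in DHT libraries had r = 0.91 (exact permutation p = 0.0208, adjusted p = 0.185). There its r was 0.64 without replicate 2 and 0.20 without replicates 2 and 5. GRB7 had r = 0.58 in DHT libraries and 0.92 in vehicle libraries (exact permutation p = 0.0653 in vehicle, adjusted p = 0.266). Without replicate 2, the r of GRB7 was −0.03 in DHT and 0.17 in vehicle libraries, so the vehicle value rested on that replicate. In DHT libraries, however, the r of GRB7 was 0.68 without replicates 2 and 5, so it depended on which libraries were left out. PGAP3 in vehicle libraries had r = 0.88, and −0.98 without replicate 2.

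The genes most like ERBB2 across libraries were on other chromosomes for the most part. Among genes with a mean of at least 10 CPM, r over 12 libraries was highest for ATG2A (0.98, chromosome 11), LIMK1 (0.98, chromosome 7), HID1 (0.98, chromosome 17), TFE3 (0.98, chromosome X) and BCAR1 (0.98, chromosome 16). Over the 10 libraries without replicate 2 it was highest for CA8 (0.91, chromosome 8), TESK1 (0.90, chromosome 9), FTH1P12 (0.90, chromosome 9), BCAR1 (0.89, chromosome 16) and BICRA (0.89, chromosome 19). Over all 12 libraries the r of CA8 was −0.37, against 0.96 for TESK1, 0.81 for FTH1P12, 0.98 for BCAR1 and 0.80 for BICRA. FTH1P12 is a pseudogene of ferritin heavy chain, so its reads are uncertain. GRB7 ranked 2152 over 12 libraries and 4772 over 10, among 10242 genes. None of these closest genes passed the DHT test, with edgeR adjusted p-values of 0.272 to 0.959.

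Of the other genes of HER2 signalling (ligands, partner receptors, adaptors and kinases), 0 of 38 tested passed in either direction in edgeR. At an unadjusted p under 0.05, 5 were lower and 2 higher, limma-voom called 0, and DESeq2 called 3: ERRFI1, GRB2 and TOB1. Over all genes, 5.41% were lower and 6.59% higher at an unadjusted p under 0.05, and DESeq2 called 4.85%. ERRFI1, a feedback inhibitor of the ERBB receptors, averaged 116 CPM in DHT and 86.5 CPM in vehicle libraries, a log2 fold change of 0.42 (SE 0.13, edgeR adjusted p = 0.121). TOB1 averaged 192 CPM in DHT and 262 CPM in vehicle libraries, a log2 fold change of −0.45 (SE 0.12, edgeR adjusted p = 0.0743). GRB2, the adaptor that links receptors to RAS, averaged 950 CPM in DHT and 1172 CPM in vehicle libraries, a log2 fold change of −0.30 (SE 0.12, edgeR adjusted p = 0.296). ERBB3, the main partner of HER2, averaged 298 CPM in DHT and 341 CPM in vehicle libraries (log2 fold change −0.20, edgeR adjusted p = 0.729). The list's median log2 fold change was −0.04, beside −0.05 over all genes.

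Genes that work with the other neighbours did not pass either. Among CDK12 partners and its long DNA-repair targets, 0 of 21 genes passed in edgeR, DESeq2 or limma-voom, 0 were under an unadjusted p of 0.05, and the median was −0.08. Of the sterol-contact partners of STARD3, 0 of 12 passed by any of the 3 tools. MOSPD2, a tether of the endoplasmic reticulum, was higher at an unadjusted p (log2 fold change 0.27, edgeR adjusted p = 0.355). Of the SCF partners of FBXL20, 0 of 11 passed by any of them, with FBXL18 at −0.31 and CUL1 at 0.20 under an unadjusted p of 0.05. The medians of these last lists were both 0.00.

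Among markers of cell type, all 10 of luminal epithelium had a mean of at least 1 CPM, and ESR1 and PGR together had 0.16 to 0.399 CPM in DHT and 0.222 to 0.876 CPM in vehicle libraries. Summed leukocyte markers were 0.0911 to 0.472 CPM in DHT and 0 to 0.855 CPM in vehicle libraries, with CD3E at 0, and none of the 4 endothelial markers averaged 1 CPM. Summed fibroblast markers were 59.9 to 75.9 CPM in DHT and 76.4 to 110.4 CPM in vehicle libraries, with 3 of 6 at 1 CPM or more. Summed basal markers were 3.52 to 4.55 CPM in DHT and 11.5 to 18.4 CPM in vehicle libraries, with 2 of 6 at 1 CPM or more. Both sums were lower in every DHT library than in every vehicle library, as were 0.991% of all genes tested. Each sum comes from a few genes in a single cell line and was not taken as a share of cells. The part of these genes in the ERBB2 and GRB7 values was not tested.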

How the data were processed

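The authors deposited a table of estimated counts for each gene. The submitters' processing notes name STAR, featureCounts and the build GRCh38, without versions. Since 39.6% to 46.7% of the nonzero values in each library were fractional (tolerance 0.005), all were rounded, a departure from the plan to test raw counts. A record broken over 3 lines was left out, and 60400 identifiers matched the symbol table. In the authors' deposited table, the file headers name log2 fold changes and adjusted p-values, here for 14559 genes. The sources used here do not give its model.

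Counts were filtered (filterByExpr), scaled by TMM and tested in edgeR 4.0.16 (R 4.3.3) by the quasi-likelihood F-test, with group as the only term and Benjamini-Hochberg adjustment over 16355 genes, at a threshold of 0.05. Standard errors were derived from the fold change and F. Changes relative to ERBB2 used limma 3.58.1 with a trended prior on log2 CPM with a prior count of 2. Correlations used the same log2 CPM in Python 3.11.15 with numpy 2.4.6 and scipy 1.17.1. Alternatives were DESeq2 1.42.0, limma-voom, other scalings, filters and prior counts, a replicate block and left-out libraries. The edgeR and limma fits were tested on simulated data. Those counts were drawn for each gene on its own, so library-wide differences like those of replicate 2 were not covered. Replicate numbers were not taken to pair the libraries. The 10 genes and all gene lists were chosen with earlier results of these data known. Named genes were the 10 members, genes passing within 1 Mb, the 5 most correlated genes over each set of libraries, and up to 3 raised and 3 lowered genes per list. ERBB3 and the genes named only by an unadjusted p, by DESeq2 or by the replicate block were added after their values were seen.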

Additional observations from a re-analysis of the deposited data

Results flagged for a closer look

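In 5 of the 20 groups examined (10 genes in each of DHT and vehicle), the highest of the 6 libraries stood apart from the next by more than the 95% critical value of Dixon's gap ratio for 6 values, and chance alone marks about 1 group in 20. In the DHT group this was MIEN1 in replicate 2, at 104.1 CPM. In the vehicle group it was replicate 2 for ERBB2 (2165 CPM), GRB7 (122.7 CPM), PGAP3 (61.17 CPM) and PNMT (2.595 CPM). All 5 are replicate 2 libraries, and the groups are not independent of each other. Over all genes tested, replicate 2 stood apart as the highest library in this way for 18.1% of genes in DHT and 11.6% in vehicle libraries.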

How the results depend on the processing

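None of the 8 members tested changed direction under any of the 22 alternatives. For all genes called, only their numbers were compared between settings. The 464 genes called became 793 with DESeq2, 920 without both replicate 2 libraries and 278 to 619 when 1 library was left out. Of the 8 members tested, 1 passed in the chosen fit, 2 (ERBB2 and GRB7) passed with DESeq2, upper-quartile scaling, library totals only or without both replicate 2 libraries, 0 passed with no filter on low counts, and 0 to 2 passed when 1 library was left out. ERBB2 had an adjusted p of 0.00751 with DESeq2, 0.0383 with upper-quartile scaling, 0.0202 with library totals only and 0.00154 without both replicate 2 libraries, and GRB7 had 0.0639 with no filter. Genes called within 1 Mb numbered 1, against 4 without both replicate 2 libraries and 0 to 2 when 1 library was left out. Neighbours whose change differed from that of ERBB2 numbered 4 or 5 throughout. The median correlation of 0.75 was 0.19 without both replicate 2 libraries, 0.16 with library totals only and 0.476 to 0.786 when 1 library was left out. The excess of 1.00 in vehicle replicate 2 was 0.64 with library totals only and 0.972 to 1.02 when 1 library was left out. The cause of these changes was not tested. The other 6 members tested kept their sign and did not pass under any of the 22 alternatives.

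With the replicate number as a block in edgeR, 1286 genes were called, and the median correlation was 0.26. The members called were 2, with ERBB2 at an adjusted p of 0.00108. Of the 39 genes tested within 1 Mb, the block called 5 as lower and 0 as higher. Over all genes, 3.19% were lower and 4.67% higher in this fit. The 5 were ERBB2, GRB7, LASP1 (log2 fold change −0.47), PCGF2 (−0.35) and IGFBP4 (−0.41). The block also called 4 of the 38 HER2 signalling genes (ERRFI1, TOB1, GRB2 and PIK3R2) and 1 of the 21 CDK12 partners and targets (FANCD2). Deviations of same-numbered libraries correlated at 0.51, 0.87, 0.44, 0.26, −0.24 and 0.46. As 1 of these is below 0 and the labels do not say that a number marks a shared culture, the numbers were not taken as pairs. Of the 6 DHT libraries, 3 correlated best with the vehicle library of their own number. Counts of 0 to a few per library limit TCAP, PNMT and PPP1R1B.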
